A study of Mus musculus with 20 samples.

Results

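The 10 genes described here are 8 transcriptional targets of p53 (Cdkn1a, Mdm2, Ccng1, Trp53inp1, Sesn1, Bax, Phlda3 and Zmat3) and the neighbouring INK4 genes Cdkn2a and Cdkn2b, which are widely used to mark senescent cells. They were taken by symbol, all 10 were found, and the 3 count tables share 24394 symbols. They were measured by mRNA sequencing of fibroadipogenic progenitors, connective tissue cells of muscle from which both matrix-producing and fat cells can arise, freshly sorted from the hindlimb of male C57BL/6J mice whose age is not given. KPC mice had received cells of the KPCY line into the pancreas. KPCY is a pancreatic tumour line, so the sorted muscle cells are host cells, and the labels state no engineered allele for the hosts. Control mice had sham surgery in place of the tumour cells. There were 4 KPC and 3 control libraries at day 14, 3 KPC and 3 control libraries at day 21, and 3 KPC and 4 control libraries at day 26. The labels call these biological replicates and do not say how many animals went into each. The sort kept live nucleated SCA-1+ cells that were CD31-, CD45- and α7-integrin-.

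The protein p53 is a transcription factor that is held at a low level by the ubiquitin ligase Mdm2 and is stabilised when DNA is damaged or other stress is sensed. Its targets arrest the cell cycle, feed back on p53 itself, or act in apoptosis, autophagy and growth control, and many of them also answer to other factors such as FOXO proteins and steroid receptors. Lasting arrest, called senescence, usually involves Cdkn1a or the products of Cdkn2a. The inhibitors p21 (from Cdkn1a) and p16 (from Cdkn2a) act on cyclin-dependent kinases and so on the retinoblastoma protein. The other Cdkn2a product, p19Arf, acts on Mdm2. Senescent fibroblasts often secrete cytokines and proteases.

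RefSeq windows of 300 bases around the annotated start sites (250 before and 50 after, GRCm38.p6) matched 8 of the 10 members, with 11 windows in all; Trp53inp1 and Zmat3 had no entry. Windows are printed for Cdkn1a and Phlda3, which differed between KPC and control in opposite directions, and for the feedback genes Ccng1 and Mdm2. Capitals mark the matches found for the p53 decamer consensus, for a full p53 site (2 adjacent decamers, at most 1 letter off) and for the FOXO motif GTAAACA, read on both strands.
Cdkn1a, chr17:29090729-29091028, plus strand: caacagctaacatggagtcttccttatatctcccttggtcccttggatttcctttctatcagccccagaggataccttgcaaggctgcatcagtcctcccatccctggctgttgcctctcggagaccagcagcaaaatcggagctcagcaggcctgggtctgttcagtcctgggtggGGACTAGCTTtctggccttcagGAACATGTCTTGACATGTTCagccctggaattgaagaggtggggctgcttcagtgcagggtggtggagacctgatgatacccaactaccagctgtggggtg
Ccng1, chr11:40755237-40755536, minus strand: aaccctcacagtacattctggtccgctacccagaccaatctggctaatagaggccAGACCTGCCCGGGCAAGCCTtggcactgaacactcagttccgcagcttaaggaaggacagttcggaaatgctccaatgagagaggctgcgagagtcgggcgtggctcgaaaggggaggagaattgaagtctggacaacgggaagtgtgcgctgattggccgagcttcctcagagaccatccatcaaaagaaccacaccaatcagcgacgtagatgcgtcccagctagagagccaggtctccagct
Mdm2, chr10:117710709-117711008, minus strand: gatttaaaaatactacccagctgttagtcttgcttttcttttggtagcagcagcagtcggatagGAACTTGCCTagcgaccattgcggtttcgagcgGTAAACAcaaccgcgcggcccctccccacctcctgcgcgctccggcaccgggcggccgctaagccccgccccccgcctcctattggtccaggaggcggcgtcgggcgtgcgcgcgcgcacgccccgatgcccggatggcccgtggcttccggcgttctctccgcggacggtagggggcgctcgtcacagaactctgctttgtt
Phlda3, chr1:135765835-135766134, plus strand: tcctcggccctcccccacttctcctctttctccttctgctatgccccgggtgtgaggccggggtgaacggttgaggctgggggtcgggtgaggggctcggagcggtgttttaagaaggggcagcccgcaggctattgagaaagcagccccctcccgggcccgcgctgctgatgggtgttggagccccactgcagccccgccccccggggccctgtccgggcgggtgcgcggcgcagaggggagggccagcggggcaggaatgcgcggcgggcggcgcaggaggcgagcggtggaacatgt
The first Cdkn1a window, which lies upstream of the second at chr17:29093519-29093818, holds a full p53 site that starts 51 bases before the start site, and a further decamer that starts 73 bases before it. Ccng1 holds a full site that starts 195 bases before its start. Full sites occurred in 29 of 32851 windows (0.0883%), and they contain decamers, which occurred in 8.36% of windows. Mdm2, Bax and the second Sesn1 window hold a decamer each. GTAAACA occurred in 3.65% of windows and in those of Mdm2 and Sesn1 (first window, on the other strand). TTCNNNGAA (8.3% of windows), AGAACA (19.0%) and TATAAA (13.6%) had no match in the members' windows. The Phlda3, Cdkn2a, Cdkn2b and second Cdkn1a windows held none of these motifs. The Phlda3 window ends in a stretch that fits the opening letters of the p53 decamer, so a match across its edge could not be scored. A match is a stretch of letters and no evidence of binding.

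Libraries held 12.9 to 26.4 megacounts. The summed level of the 5 progenitor markers Pdgfra, Ly6a, Dcn, Col1a1 and Cd34 ran from 17398 to 32153 CPM (counts relative to library size, scaled by TMM over all 20 libraries), and none was at 0. At day 26 it was 17398, 24988 and 25533 CPM in KPC replicates 1 to 3, against 24941 to 30043 CPM in controls. The 8 macrophage markers summed to 369.8, 39.9 and 21.8 CPM in the same KPC libraries, against 17.0 to 24.6 CPM in controls, and the 8 endothelial markers to 791, 306 and 414 CPM, against 379 to 529 CPM. Tek, the most abundant endothelial marker (average log2 CPM 8.29 at day 26, against 1.54 to 4.16 for the other markers), had a negative fold change there (log2 -0.79), while 7 of 8 had positive ones (median 1.99, Vwf 3.81, Pecam1 3.23, none called), so the sum does not follow most of the list. At day 21 macrophage markers summed to 78.0, 33.1 and 19.9 CPM in KPC, against 14.4 to 23.6 CPM in controls, and myofibre markers to 449, 87.0 and 42.6 CPM, against 24.0 to 47.3 CPM. Of the progenitor markers, Cd34 (log2 -1.14 ± 0.15) and Col1a1 (-1.24 ± 0.18) were called lower and Dcn (0.49 ± 0.14) higher at day 21. None was called at day 14, nor at day 26, when no gene of any kind was called with all libraries. Endothelial markers were called higher for 4 of 8 and lower for 1 (Tek) at day 21, macrophage markers higher for 1 of 7, glial markers higher for 1 of 5, and mural markers higher for 1 and lower for 1 of 6. At day 14 each KPC library lay above each control in the summed endothelial (504 to 643 CPM in KPC, against 403 to 468 CPM), mural (186 to 219.5 CPM, against 95.3 to 147.5 CPM), glial (59.2 to 127 CPM, against 18.3 to 39.8 CPM), satellite cell (61.1 to 84.4 CPM, against 46.2 to 56.2 CPM) and macrophage markers (20.9 to 43.1 CPM, against 14.3 to 19.7 CPM), with Egfl7, Cldn5, Notch3 and Itga7 called higher. At day 26 glial markers summed to 125, 43.1 and 34.6 CPM in KPC, against 17.4 to 31.8 CPM in controls, and mural markers to 315, 41.9 and 137 CPM, against 88.5 to 150.1 CPM. Of the 6 epithelial and tumour markers, Krt8 and Krt18 were at 0 in all day 21 libraries, Epcam, Krt8 and Krt18 were at 0 in the controls of days 14 and 26, and the sum was 2.46 to 25.3 CPM in KPC of day 14, 3.56 to 5.54 CPM in KPC of day 21 and 0.647 to 16.7 CPM in KPC of day 26, against 2.61 to 8.25 CPM in all controls. On the first principal component (34.4% of variance) KPC replicates 1 and 2 of day 26 lay at 127.1 and 105.9 and KPC replicate 3 at -8.67, against -35.8 to -22.5 in the controls of that day. The part of these other cells in the results below was not tested. In bulk samples, fewer cells of a type and less RNA per cell cannot be told apart. The leading number of the library codes separates KPC from control fully at days 14 and 21, so a batch behind it and the tumour cannot be told apart there.

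Across the 20 libraries Cdkn1a, which encodes the cyclin-dependent kinase inhibitor p21, was the most abundant member per length, with a median of 50.6 CPM per kilobase of exon. Bax (23.1), Phlda3 (21.3), Ccng1 (16.7), Sesn1 (12.2) and Mdm2 (10.1 CPM per kilobase) followed, then Trp53inp1 (4.54) and Zmat3 (1.86). The INK4 genes were near the floor of detection, with medians of 0.403 CPM per kilobase for Cdkn2b and 0 for Cdkn2a. Trp53inp1 had the widest spread of the 8 expressed members, from 13.4 to 644 CPM, and Bax spanned 27.8 to 45.9 CPM.

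**Figure D1:**
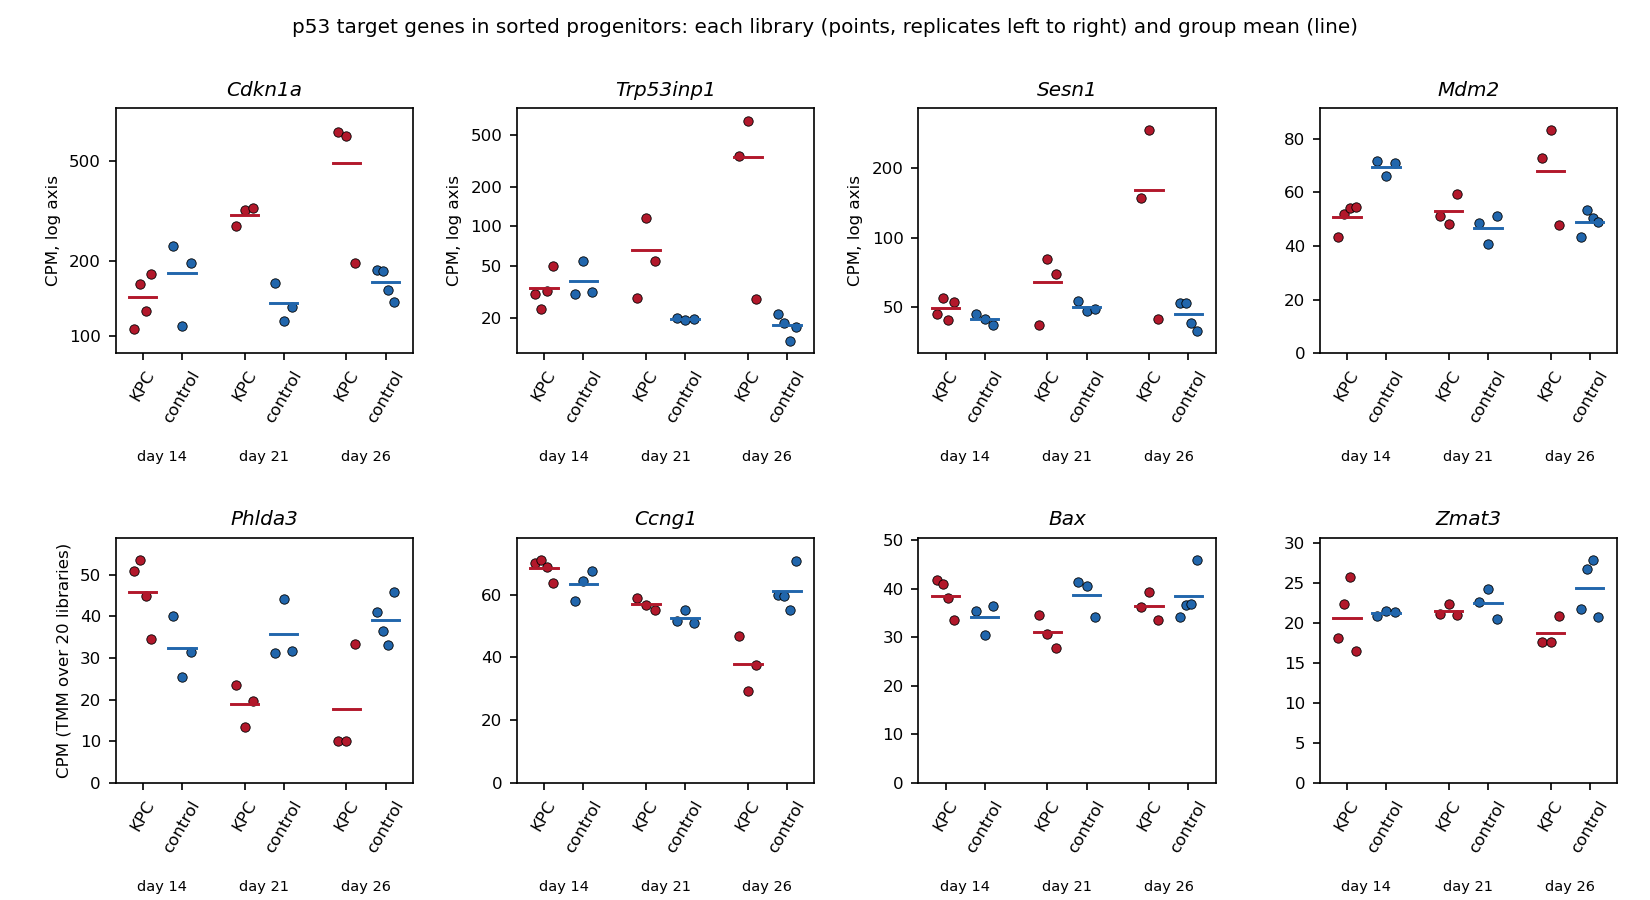
Level of the 8 expressed p53 targets in each of the 20 libraries, in CPM scaled by TMM over all libraries (log axis for Cdkn1a, Trp53inp1 and Sesn1, linear axis from 0 for the rest). Points are libraries, in replicate order within a group, and lines are group means; in KPC at day 26, replicate 3 lies apart from replicates 1 and 2 for Cdkn1a, Trp53inp1, Sesn1, Mdm2 and Phlda3.

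At day 14, the earliest stage, no member passed the test between KPC and control. Mdm2, the ubiquitin ligase that degrades p53 (chr10:117688875-117710758), had 43.4, 51.8, 54.1 and 54.5 CPM in KPC, against 71.6, 66.1 and 70.8 CPM in controls. All 4 KPC libraries lay below all 3 controls. The log2 fold change was -0.43 ± 0.11 (SE), with an adjusted p of 0.07349 in edgeR's quasi-likelihood test with Benjamini-Hochberg adjustment.

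Cdkn1a (chr17:29090976-29100727) had 107, 162, 126 and 176 CPM in KPC, against 229, 110.03 and 196 CPM in controls at day 14, and the groups overlapped (log2 -0.30 ± 0.26, adjusted p 0.6755 in edgeR). Phlda3, a pleckstrin homology protein that keeps Akt from the membrane (chr1:135766119-135769136), had 50.8, 53.5, 44.9 and 34.4 CPM in KPC, against 40.1, 25.3 and 31.4 CPM in controls. The 2 groups overlapped through KPC replicate 4 and control replicate 1 (log2 0.52 ± 0.18, adjusted p 0.1885 in edgeR). Trp53inp1, a stress-induced protein that acts in p53 signalling and autophagy (chr4:11156431-11174379), had 30.5, 23.3, 32.1 and 49.9 CPM in KPC, against 30.5, 54.01 and 31.3 CPM in controls, and the ranges overlapped in part. Sesn1, a sestrin that restrains mTORC1 (chr10:41809935-41908424), spanned 43.9 to 54.9 CPM in KPC, against 42.03 to 46.98 CPM in controls. The apoptosis effector Bax (chr7:45461697-45466898) spanned 33.6 to 41.9 CPM in KPC, against 30.5 to 36.4 CPM in controls.

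Of the 9 members tested at day 14 (Cdkn2a was too low), 0 were called, that is, had an adjusted p under 0.05, against 1.12% of all 13344 genes tested, and 2, Mdm2 and Phlda3, had an unadjusted p under 0.05, against 14.3% of genes. Groups did not overlap for 1 member, Mdm2, against 13.3% of genes. DESeq2 called 1 member, Mdm2 (4.5% of genes), and limma-voom with quality weights called Mdm2 and Phlda3 (4.95% of genes).

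At day 21 Cdkn1a rose and Phlda3 fell in KPC, and the other 7 tested members were not called. Cdkn1a had 274, 318 and 325 CPM in KPC, against 163, 115 and 131 CPM in controls. All KPC libraries lay above all controls, with group means of 305 ± 27.3 CPM in KPC and 136 ± 24.5 CPM in controls (SD, n = 3 each). The log2 fold change was 1.16 ± 0.14 (SE), with an adjusted p of 0.0003023 in edgeR's quasi-likelihood test.

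Phlda3 had 23.6, 13.4 and 19.6 CPM in KPC, against 31.2, 44.1 and 31.7 CPM in controls at day 21. All KPC libraries lay below all controls (log2 -0.92 ± 0.21, adjusted p 0.01766 in edgeR). The call was lost without control replicate 2 (adjusted p 0.08481) and without KPC replicate 3 (adjusted p 0.05373). In a single edgeR fit of all 6 groups, where the spread is shared with day 26, neither gene was called at day 21, when 3.08% of all genes were (adjusted p 0.06844 for Cdkn1a and 0.1565 for Phlda3).

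Trp53inp1 had 28.3, 117 and 54.8 CPM in KPC, against 19.9, 19.4 and 19.5 CPM in controls at day 21. The groups did not overlap, but the KPC libraries spread widely, and the gene was not called in edgeR (log2 1.75 ± 0.53, adjusted p 0.09878). It was called by DESeq2, by limma-voom and in edgeR without KPC replicate 1 (log2 2.11, adjusted p 0.001503) or without KPC replicate 2 (log2 1.08, adjusted p 0.01376). Day 14 controls had 30.5, 54.01 and 31.3 CPM of Trp53inp1, and its day 21 KPC values overlapped these. Sesn1 had 41.98, 81.1 and 69.9 CPM in KPC, against 53.2, 48.4 and 49.1 CPM in controls. KPC replicate 1 lay below the controls and the other two above them (log2 0.35 ± 0.20, adjusted p 0.2974 in edgeR). Without KPC replicate 1 Sesn1 was called (log2 0.57, adjusted p 0.003584 in edgeR). That fit leaves out the lowest KPC library for both Trp53inp1 and Sesn1 and so selects on the outcome. It called 2644 of 13391 genes, and the fit without KPC replicate 2 called 1103 of 13432.

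The feedback genes Mdm2 and Ccng1 were not called at day 21. Mdm2 had 51.2, 48.3 and 59.4 CPM in KPC, against 48.7, 40.8 and 51.2 CPM in controls (log2 0.17 ± 0.13, adjusted p 0.4347 in edgeR). Ccng1, which encodes cyclin G1, a partner of protein phosphatase 2A that acts on Mdm2 (chr11:40748552-40755311), had 59.002, 56.8 and 55.1 CPM in KPC, against 51.7, 55.2 and 50.9 CPM in controls (log2 0.11 ± 0.11, adjusted p 0.5433 in edgeR). Bax had 34.6, 30.8 and 27.8 CPM in KPC, against 41.3, 40.5 and 34.2 CPM in controls (log2 -0.32 ± 0.14, adjusted p 0.1555 in edgeR). Zmat3, which encodes an RNA-binding zinc finger protein (chr3:32334792-32366014), spanned 21.04 to 22.4 CPM in KPC, against 20.5 to 24.2 CPM in controls.

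The calls at day 21 were 2 of 9 members, against 12.5% of 13154 genes, with 1 member higher (6.38% of genes) and 1 lower (6.11%). With library size alone as scaling, the split over all genes was 1058 higher and 613 lower, against 839 and 804 with TMM, and both members kept their call. Groups did not overlap for 3 of 9 members, against 33.2% of genes. The share of members without overlap was close to that of all genes.

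At day 26 the fold changes of Trp53inp1, Sesn1 and Cdkn1a were larger than at day 21, but KPC replicate 3 stood near the controls and no gene of 13157 was called in edgeR. Trp53inp1 had 347, 644 and 27.7 CPM in KPC replicates 1 to 3, against 21.5, 18.3, 13.4 and 17.0 CPM in controls. All KPC libraries lay above all controls, with replicate 3 just above them (log2 4.27 ± 0.82, adjusted p 0.05921 in edgeR). Cdkn1a had 649, 625 and 197 CPM in KPC, against 184, 183, 153 and 137 CPM in controls. The groups did not overlap, with replicate 3 again next to the highest control (log2 1.58 ± 0.37, adjusted p 0.06338 in edgeR).

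Sesn1 had 149, 291 and 44.3 CPM in KPC, against 52.1, 51.98, 42.9 and 39.5 CPM in controls at day 26, and KPC replicate 3 lay within the control range (log2 1.79 ± 0.50, adjusted p 0.07276 in edgeR). Mdm2 had 72.9, 83.1 and 47.9 CPM in KPC, against 43.2, 53.3, 50.5 and 48.9 CPM in controls. Its KPC replicate 3 also lay within the control range (log2 0.48 ± 0.19, adjusted p 0.1231 in edgeR).

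The other members with an unadjusted p under 0.05 at day 26 had negative fold changes. Ccng1 had 46.99, 29.3 and 37.6 CPM in KPC, against 59.8, 59.6, 55.3 and 70.6 CPM in controls. All KPC libraries, replicate 3 included, lay below all controls (log2 -0.68 ± 0.19, adjusted p 0.07276 in edgeR). Phlda3 had 10.1, 10.05 and 33.3 CPM in KPC, against 40.99, 36.4, 33.1 and 45.7 CPM in controls. KPC replicate 3 overlapped the controls and the other two lay far below them (log2 -1.11 ± 0.43, adjusted p 0.1184 in edgeR). Bax had 36.2, 39.3 and 33.5 CPM in KPC, against 34.2, 36.6, 36.8 and 45.9 CPM in controls (log2 -0.07 ± 0.14, adjusted p 0.7236 in edgeR). Zmat3 had 17.7, 17.6 and 20.9 CPM in KPC, against 21.8, 26.8, 27.9 and 20.8 CPM in controls, and the groups overlapped through KPC replicate 3 and control replicate 4 (log2 -0.37 ± 0.17, adjusted p 0.1578 in edgeR).

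Of 8 members tested at day 26, 0 were called in edgeR, as were 0% of all genes. An unadjusted p under 0.05 was found for 6 of 8 members, against 34.3% of genes, and groups did not overlap for 3 of 8, against 29% of genes. DESeq2 called 5 members (Cdkn1a, Trp53inp1 and Sesn1 higher, Ccng1 and Phlda3 lower; 21.4% of genes), and limma-voom with quality weights called these and Mdm2 (34.8% of genes). The single edgeR fit of all 6 groups, where the spread is shared with the other days, called the same 6 members (34.6% of genes).

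Without KPC replicate 3, edgeR called 7 of 8 members, against 51.6% of 13517 genes. Trp53inp1 (log2 4.80 ± 0.25), Sesn1 (2.22 ± 0.23), Cdkn1a (1.94 ± 0.16) and Mdm2 (0.66 ± 0.12) were higher, Phlda3 (-1.96 ± 0.17), Ccng1 (-0.69 ± 0.20) and Zmat3 (-0.48 ± 0.17) were lower, and Bax was not called (-0.04 ± 0.14). That fit leaves out the KPC library nearest to the controls and so selects on the outcome. Markers moved in it too, against 25.7% of genes higher and 25.9% lower. The progenitor markers Col1a1 (-4.25 ± 0.33), Cd34 (-3.00 ± 0.18) and Ly6a (-1.11 ± 0.19) were lower, and Dcn and Pdgfra were not called. Called higher were 6 of 8 macrophage, 4 of 8 myofibre, 3 of 5 glial and 3 of 8 endothelial markers, with 1 endothelial marker lower. Their part in the member calls was not tested. Among the day 26 libraries whose code has the same leading number, KPC replicates 1 and 2 and control replicates 1 to 3, edgeR called 6 of 8 members, against 47.1% of genes; Ccng1 was not among them (log2 -0.59 ± 0.22, adjusted p 0.06363). This subset also lacks KPC replicate 3.

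**Figure D2:**
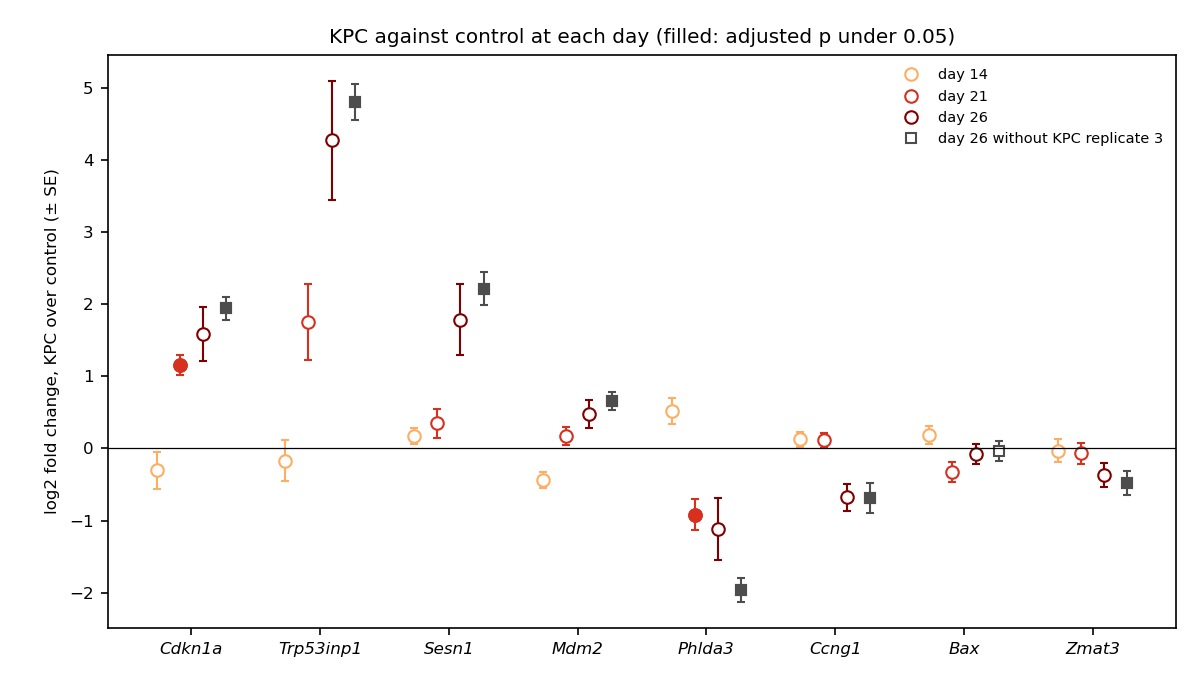
Log2 fold change of KPC over control with its standard error for the 8 expressed p53 targets at days 14, 21 and 26 (circles) and at day 26 without KPC replicate 3 (squares); filled symbols have an adjusted p under 0.05 in edgeR. Filled circles are seen for Cdkn1a (1.16) and Phlda3 (-0.92) at day 21, and all squares but that of Bax are filled.

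The change of the KPC effect from day to day was tested as a difference of fold changes in a fit of all 20 libraries. KPC of each day was set against the controls of that day. The spread of a gene is shared over all 6 groups there, although KPC libraries of day 26 lay further apart than those of other groups. Standard errors can therefore be too small where KPC of day 26 enters. For KPC against control at day 26 the shared fit called 4889 genes, where the fit of that day alone called 0. Between day 26 and day 14 the effect differed for 6 of 9 members, against 14.3% of 14141 genes, with 4 members higher (9.6% of genes) and 2 lower (4.72%). It was higher at day 26 for Trp53inp1 (difference in log2 4.46 ± 0.92, adjusted p 0.01164 in edgeR), Cdkn1a (1.90 ± 0.44, adjusted p 0.01415), Sesn1 (1.64 ± 0.53, adjusted p 0.04975) and Mdm2 (0.93 ± 0.21, adjusted p 0.01262). It was lower for Phlda3 (-1.63 ± 0.47, adjusted p 0.03302 in edgeR) and Ccng1 (-0.80 ± 0.18, adjusted p 0.01255).

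The calls for Trp53inp1, Mdm2 and Ccng1 between days 26 and 14 held when each of the 20 libraries was left out in turn. Each of these fits shares the spread over the groups in the same way. Cdkn1a lost its call without KPC replicate 2 of day 26 (adjusted p 0.05692 in edgeR). Phlda3 kept it in 11 of 20 such fits and lost it without any of the 3 day 14 controls, control replicate 1 or 4 of day 26, or KPC replicate 1 or 2 of day 14 or of day 26 (adjusted p up to 0.1025 in edgeR). Sesn1 kept it in 2 of 20, those without KPC replicate 1 of day 21 or KPC replicate 3 of day 26 (adjusted p up to 0.2099 in edgeR, without KPC replicate 2 of day 26). Sesn1 also lost it with no filter on low counts (adjusted p 0.07419).

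Between day 21 and day 14 the effect differed for 0 of 9 members in edgeR, against 0.644% of genes. Cdkn1a had a difference of 1.49 ± 0.46 (adjusted p 0.1507 in edgeR) and Phlda3 of -1.42 ± 0.49 (adjusted p 0.1878). The unadjusted p was under 0.05 for 4 of 9 members, against 15.1% of genes. DESeq2 called 1 (Cdkn1a), against 2.77% of genes, and limma-voom 5, against 13.6%. Between day 26 and day 21 it differed for 0 of 9 members and 0% of genes in edgeR, with an unadjusted p under 0.05 for 3 members (12.9% of genes). DESeq2 called 1 there (Ccng1; 0.403% of genes) and limma-voom 3 (7.59%). Without KPC replicate 3 of day 26, 5 members differed between days 26 and 21 (21.9% of genes), among them Trp53inp1 (3.07 ± 0.62) and Sesn1 (1.88 ± 0.31), while Cdkn1a was not called (0.79 ± 0.32, adjusted p 0.08296 in edgeR).

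**Figure D3:**
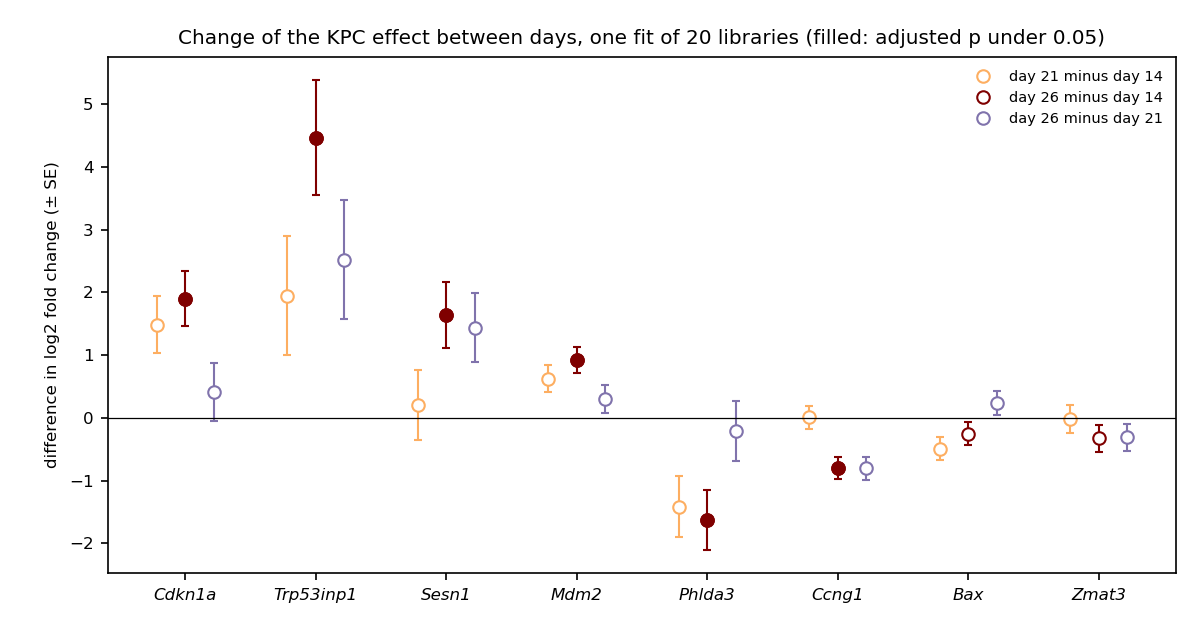
Difference in the KPC effect (log2 fold change of KPC over control) between pairs of days, with its standard error, for the 8 expressed p53 targets in a single edgeR fit of 20 libraries; filled points have an adjusted p under 0.05. Filled points are seen for day 26 minus day 14 alone, from 4.46 for Trp53inp1 to -1.63 for Phlda3.

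The controls themselves differed by day for Mdm2. In controls it had 43.2 to 53.3 CPM at day 26 and 40.8 to 51.2 CPM at day 21, against 66.1 to 71.6 CPM at day 14. It was lower at day 21 than at day 14 (log2 -0.57 ± 0.16, adjusted p 0.0314 in edgeR, 8.51% of genes called, 6.85% lower) and lower at day 26 than at day 14 (-0.51 ± 0.15, adjusted p 0.04406, 6.95% of genes called, 5.52% lower). One or the other of these calls held in most fits that left out a library, and neither held in 6 of 20 (without any of the 3 day 14 controls, control replicate 1 or 3 of day 21, or KPC replicate 1 of day 21). No other member was called between control days in edgeR, and between days 26 and 21 0.0354% of genes were. The leading number of the library codes also separates the controls of each day from those of the others. A batch behind it and the day therefore cannot be told apart in these control differences. The day 14 controls enter the Mdm2 difference between days 26 and 14, and Mdm2 in KPC at day 26, at 47.9 to 83.1 CPM, overlapped them.

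The INK4 genes, which encode the kinase inhibitors p16 and p15 and, from an alternative frame of Cdkn2a, the Mdm2 antagonist p19Arf, were barely detected. Cdkn2a (chr4:89274471-89294653) had 14 counts in all 20 libraries together and 0 counts in 13 of them. Its highest count was 4, in KPC replicate 1 of day 14, followed by 3 in control replicate 1 of day 21. A count of 0 allows up to 3 counts, or 0.118 to 0.224 CPM by library, for counting error only. Cdkn2a failed the filter on low counts at each day, and no difference was detectable at this depth.

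Cdkn2b (chr4:89306299-89311039) had 288 counts in all, at 0.224 to 1.81 CPM. At day 14 it had 23, 18, 3 and 16 counts in KPC, against 7, 6 and 20 in controls (log2 0.27 ± 0.68, adjusted p 0.9138 in edgeR). At day 21 it had 35, 14 and 7 counts in KPC, against 17, 27 and 20 in controls (log2 0.15 ± 0.76, adjusted p 0.9269 in edgeR). At day 26, where it failed the filter, it had 32, 4 and 6 counts in KPC, against 5, 6, 12 and 10 in controls. The groups overlapped at each day, and KPC replicate 1 held the highest raw count of its day each time. Scaled to CPM, control replicate 3 of day 14 (1.0456 CPM) lay level with KPC replicate 1 (1.044 CPM).

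The related lists below are read against these shares of all genes: 1.12% called at day 14, 12.5% at day 21 and 0% at day 26 in edgeR, 14.3%, 27.7% and 34.3% with an unadjusted p under 0.05, 4.5%, 17.2% and 21.4% called by DESeq2, and 4.95%, 17.3% and 34.8% by limma-voom. The fit of day 26 without KPC replicate 3 called 25.7% of genes higher and 25.9% lower.

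The gene of p53 itself, Trp53, was not called at any day in edgeR with all libraries. At day 14 it spanned 43.1 to 55.4 CPM in KPC, against 50.9 to 56.8 CPM in controls (log2 -0.15 ± 0.11, adjusted p 0.6097). It had 60.2, 70.1 and 67.3 CPM in KPC, against 56.2, 63.7 and 55.3 CPM in controls at day 21 (log2 0.17 ± 0.11, adjusted p 0.3689 in edgeR). At day 26 it had 83.9, 74.003 and 67.6 CPM in KPC, against 54.8, 53.2, 55.8 and 56.3 CPM in controls. All KPC libraries, replicate 3 included, lay above all controls (log2 0.46 ± 0.12, adjusted p 0.0695 in edgeR). Of the p53 regulators, Mdm4, the relative of Mdm2 that masks the p53 activation domain, was the called member at day 21, with 175, 225 and 184 CPM in KPC, against 133, 119 and 162 CPM in controls (log2 0.49 ± 0.14, adjusted p 0.03596 in edgeR). It was not called at day 14 (-0.14 ± 0.12) or day 26 (0.33 ± 0.18). Day 14 controls had 236, 255 and 207 CPM of Mdm4, so its day 21 KPC values did not lie above the controls of all days. Over the list, 1 of 16 tested genes was higher and 0 lower at day 21, with a median log2 fold change of 0.17, against 0.01 over all genes. At day 14, 0 of 17 were called in edgeR (4 with an unadjusted p under 0.05; median -0.12), 2 lower by DESeq2 and 1 lower by limma-voom. At day 26, 0 of 17 were called in edgeR (6 with an unadjusted p under 0.05; median 0.38), 3 higher by DESeq2, and 3 higher and 1 lower by limma-voom. Without KPC replicate 3 of day 26, Trp53 was called higher (log2 0.51 ± 0.11, adjusted p 0.005313 in edgeR), as were 8 of 17 in all, with 2 lower.

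Of 30 other p53 targets tested, 3 rose and 1 fell at day 21, close to the 12.5% of all genes called that day, with a median log2 fold change of 0.24, against 0.01 over all genes. Btg2, an antiproliferative gene that is also an immediate-early gene, had 524, 678 and 558 CPM in KPC, against 216, 227 and 156 CPM in controls (log2 1.55 ± 0.15, adjusted p 0.0001014 in edgeR). Gadd45a, a growth arrest and stress gene, had 58.5, 61.2 and 67.1 CPM in KPC, against 36.1, 23.8 and 26.1 CPM in controls (log2 1.11 ± 0.16). Its exons overlap a transcript on the other strand, and the use of strand in counting is not known. Plk2, a polo-like kinase, also rose (0.90 ± 0.17), and Ak1, an adenylate kinase, fell (-1.33 ± 0.18). The day 21 KPC values of Btg2 lay above the controls of all days, whose highest was 453 CPM, but those of Gadd45a and Plk2 did not, since day 26 controls reached 84.04 CPM for Gadd45a and 47.9 CPM for Plk2. At day 14, 0 of 30 were called in edgeR, DESeq2 or limma-voom (5 with an unadjusted p under 0.05 in edgeR; median -0.07, against 0.01). At day 26, 0 of 30 were called in edgeR (10 with an unadjusted p under 0.05; median 0.41, against -0.003), 8 by DESeq2 (7 higher, 1 lower) and 13 by limma-voom (10 higher, 3 lower). Without KPC replicate 3 of day 26, 13 of 30 were higher and 5 lower, against 25.7% and 25.9% of genes, led by Plk3 (2.21 ± 0.26), Sesn2 (1.63 ± 0.22), Gdf15 (2.74 ± 0.38) and Btg2 (2.00 ± 0.28), and by Ak1 (-2.65 ± 0.22), Polk (-1.12 ± 0.17), Pml (-0.77 ± 0.14) and Tigar (-0.91 ± 0.26); these were named from that fit after its values were seen.

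Among other cell cycle inhibitors and retinoblastoma pathway genes, 2 of 13 rose and 2 fell at day 21, against 6.38% and 6.11% of all genes (median -0.05, against 0.01). The kinase inhibitor genes Cdkn2d (log2 0.72 ± 0.17) and Cdkn1b (0.49 ± 0.14) were higher, and the cyclin gene Ccnd3 (-0.65 ± 0.14) and the inhibitor gene Cdkn1c (-0.52 ± 0.13) were lower. Cdkn1b, which encodes p27, had 68.1, 100.98 and 86.2 CPM in KPC, against 57.1, 63.5 and 60.8 CPM in controls at day 21. It was not called at day 14 (-0.015 ± 0.16) or day 26 (0.47 ± 0.17). Day 14 controls had 69.1, 80.02 and 67.5 CPM of Cdkn1b, and its day 21 KPC values overlapped these. Of the list, 0 of 13 were called in edgeR at day 14 (1 with an unadjusted p under 0.05; DESeq2 and limma-voom 1 higher each) and 0 of 14 at day 26 (6 with an unadjusted p under 0.05; DESeq2 2 higher, limma-voom 4 higher and 2 lower), while 5 were higher and 3 lower without KPC replicate 3. Of 11 proliferation genes tested at day 21, 0 rose and 1, E2f1, fell (-0.998 ± 0.22), with a median of -0.02. At day 14, 0 of 12 were called in edgeR, with 0 at an unadjusted p under 0.05, and 0 by DESeq2 or limma-voom. At day 26, 0 of 14 were called in edgeR (8 with an unadjusted p under 0.05; median -1.31), 7 by DESeq2 (1 higher, 6 lower) and 2 by limma-voom (1 higher, 1 lower), while 1 was higher and 4 were lower without KPC replicate 3.

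Of 8 genes used to mark senescent nuclei or lysosomes, 3 rose at day 21 and 0 fell. These were the Polycomb gene Cbx7 (log2 0.89 ± 0.13) and the chromatin genes Hmgb2 (1.27 ± 0.19) and Hmgb1 (0.41 ± 0.10), which are known to decline in senescent fibroblasts. The lamin gene Lmnb1, whose loss is a common mark of senescence, was not called at any day (log2 -0.30 ± 0.16 at day 14, -0.31 ± 0.20 at day 21 and 0.20 ± 0.20 at day 26); it was named after its values were seen. The median of the list was 0.29, against 0.01 over all genes. In edgeR 0 of 8 were called at day 14 (0 with an unadjusted p under 0.05, and 0 by DESeq2 or limma-voom) and 0 of 8 at day 26 (3 with an unadjusted p under 0.05; DESeq2 3 higher, limma-voom 4 higher and 2 lower), while 5 were higher and 2 lower without KPC replicate 3.

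The secretory list held the largest share of calls, with 11 of 20 genes higher and 2 lower at day 21 (median log2 1.08, against 0.01 over all genes). The cytokine gene Il6 had 40.4, 36.4 and 39.4 CPM in KPC, against 1.497, 2.64 and 2.93 CPM in controls. The controls of day 21 were low for it, since the range of Il6 was 28.4 to 46.1 CPM in controls of day 14, and in those of day 26 it was 12.8 to 40.1 CPM. The chemokine genes Ccl7 (log2 2.00 ± 0.18) and Cxcl1 (1.74 ± 0.18) and the protease gene Mmp3 (1.29 ± 0.13) also rose, and Igfbp5 (-1.35 ± 0.15) and Igfbp6 (-0.74 ± 0.11), carriers of insulin-like growth factors, fell. Ccl7 had 41.4, 34.5 and 32.7 CPM in KPC, against 8.47, 10.9 and 7.74 CPM in controls at day 21, and 36.9 to 57.1 CPM in day 14 controls. At day 14, 0 of 20 rose and 2 fell, Ccl2 (-1.80 ± 0.19) and Ccl7 (-1.35 ± 0.21), with a median of -0.31. At day 26, 0 of 20 were called in edgeR, with a median of 0.99 and 11 at an unadjusted p under 0.05; DESeq2 called 7 (6 higher, 1 lower) and limma-voom 8 (6 higher, 2 lower), while 9 were higher and 2 lower without KPC replicate 3.

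**Figure D4:**
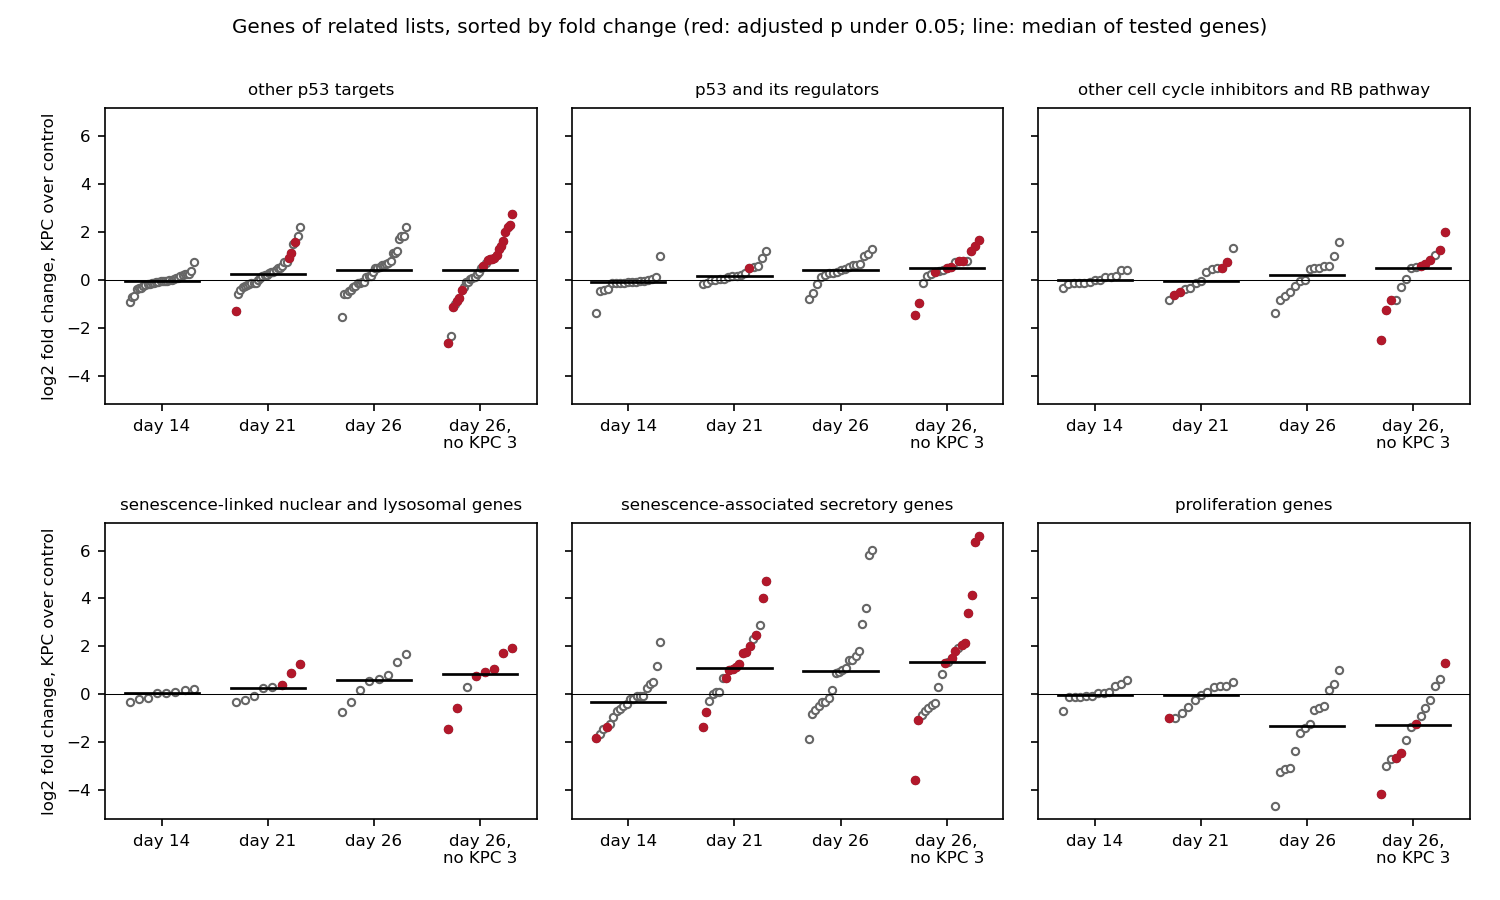
Log2 fold change of KPC over control for every tested gene of 6 related lists at days 14, 21 and 26 and at day 26 without KPC replicate 3; each point is a gene, sorted within its column, red points have an adjusted p under 0.05 in edgeR and lines are medians. The secretory list has the most red points at day 21, 13 of 20, and the proliferation list the lowest median at day 26, -1.31.

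The genes whose log2 CPM followed Cdkn1a most closely across the 20 libraries, among 11473 genes, were Glul (Pearson r 0.965), Thbs1, Sbds, Fosl2 and Slc10a6. After each group's mean was subtracted they were AI607873 (0.928), Plekhf1, Thbs1, Glul and Maff. For Phlda3 they were Pmp22 (0.962), Cacna1g, Pqlc3, Tmem119 and Stt3b, and after subtraction Alg9 (0.9604), Praf2, Cd81, Clec11a and Gpx8. For Trp53inp1, which was added after its values were seen, they were Aldh6a1 (0.974), Ikbkg, Tfdp2, Fnbp4 and Nampt. Among the members, Cdkn1a had r of 0.83 with Sesn1, 0.816 with Trp53inp1 and 0.612 with Mdm2, and of -0.863 with Phlda3 and -0.623 with Ccng1. After each group's mean was subtracted these were 0.773 with Sesn1, 0.664 with Trp53inp1, 0.759 with Mdm2, -0.633 with Phlda3 and -0.163 with Ccng1. These values are descriptions over libraries that fall into clusters, in which KPC replicates 1 and 2 of day 26 lie far from the rest.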

How the data were processed

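Sorted muscle progenitors were sequenced as stranded mRNA libraries, read in pairs, per the labels' protocols. The authors deposited 3 tables of raw counts per gene symbol, 1 for each day, with no normalization. The submitters' processing notes name bcl2fastq 2.20, Bowtie, STAR, DESeq2 1.36.0, R 4.2.1 and the build mm10, with no roles; how reads were counted (program, strand, annotation) was not given in any source used here.

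The members and the related gene lists were chosen with earlier results of these data known. KPC was compared with control at each day in edgeR 4.0.16 (R 4.3.3; quasi-likelihood test, robust, TMM scaling, filter with a minimum count of 10), with Benjamini-Hochberg adjustment over all genes tested; a gene was called at an adjusted p under 0.05. Differences between days were tested in a fit of all 6 groups. Printed levels are CPM scaled by TMM over 20 libraries, and values after ± are SE for fold changes and SD for levels. Depth was 12.9 to 26.4 megacounts per library, so precision is limited by counts for Cdkn2a and Cdkn2b; floors cover counting error only. Since the labels do not tie libraries to single animals, p-values measure the spread between these libraries, which may be in part technical. No libraries were identical. Gene positions are from GENCODE vM21 (GRCm38), and lengths are the union of exons. Exons of Cdkn1a and Bax overlap annotated transcripts that the tables do not list. Those of Gadd45a, Plk3, Pml, Ccnd3, Cbx7, Hmgb1 and some markers overlap listed genes on the other strand.

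Named genes of a list are up to 4 called higher and 4 called lower at each day with the smallest p, and Trp53, Mdm4 and Cdkn1b throughout. Alternatives were DESeq2 1.42.0, limma-voom with quality weights (limma 3.58.1), RLE and library-size scaling, no filter, a minimum count of 30, non-robust estimation, the replicate number as a block, the libraries of day 26 that share a code, and each library left out. The scripts were tested on simulated data.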

Additional observations from a re-analysis of the deposited data

Results flagged for a closer look

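The KPC effect on 6 members differed between day 26 and day 14 by a test of the difference itself, in edgeR with Benjamini-Hochberg adjustment. That fit shares the spread of a gene over all 6 groups, so its standard errors can be too small for KPC of day 26. The difference in log2 fold change was 4.46 for Trp53inp1, 1.90 for Cdkn1a, 1.64 for Sesn1 and 0.93 for Mdm2. It was -1.63 for Phlda3 and -0.80 for Ccng1. KPC replicate 3 of day 26 lay nearer to the controls than KPC replicates 1 and 2 for Trp53inp1, Cdkn1a, Sesn1, Mdm2 and Phlda3. Macrophage markers summed to 369.8, 39.9 and 21.8 CPM in these KPC libraries, against 17.0 to 24.6 CPM in controls of day 26, and their part in the differences was not tested. Dixon's criterion was applied to the groups of 4 libraries alone, KPC of day 14 and control of day 26 (18 member and group pairs, with no library apart); groups of 3, KPC of day 26 among them, were not examined by it.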

How the results depend on the processing

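Of 1087 recomputed member values, 959 kept their direction and side of the threshold, 59 passed it newly, 33 lost it and 36 changed sign. None of the sign changes passed the threshold before or after, and their smallest adjusted p was 0.5984. The causes of these changes were not tested.

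At day 14, 149 genes were called in edgeR, against 600 by DESeq2, 660 by limma-voom, 278 with no filter, 2 in the fit of all 6 groups and 40 to 255 with a library left out. Members called there were 0, against 1 by DESeq2, 2 by limma-voom, 1 with no filter and 0 with any library left out. At day 21, 1643 genes and 2 members were called, against 436 and 0 in the fit of all 6 groups and 717 to 2644 and 1 to 4 with a library left out. At day 26, 0 genes and 0 members were called, against 2817 and 5 by DESeq2, 4578 and 6 by limma-voom, 6287 and 6 in the libraries that share a code, 4889 and 6 in the fit of all 6 groups, and 0 to 6972 and 0 to 7 with a library left out, the highest without KPC replicate 3.

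Members that differed between days 21 and 14 were 0, against 1 by DESeq2, 5 by limma-voom and 0 to 3 with a library left out. Between days 26 and 14 they were 6, against 3 to 6 with a library left out. Between days 26 and 21 they were 0, against 1 by DESeq2, 3 by limma-voom and 0 to 5 with a library left out. Between control days 1 differed (Mdm2), against 3 by limma-voom (Mdm2, Ccng1 and Trp53inp1) and 0 to 1 with a library left out. Shares of all genes are not given here for limma-voom between control days or for most fits with a library left out. Those counts of members therefore cannot be set against all genes.

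With a replicate block, 361 genes and 1 member (Phlda3) were called at day 14, 1545 genes and 2 members at day 21, and 0 genes and 0 members at day 26. Same-numbered libraries had correlated deviations of -0.115 to 0.147, and not every library correlated best with its own number. The labels do not say whether same-numbered libraries share more than a number, and these few correlations cannot decide it. Signs changed under the replicate block for Bax at day 26 (0.019), Cdkn2b at day 21 (-0.077) and Zmat3 at day 14 (0.061). Limma-voom turned Bax at day 26 (0.026), Cdkn2b at day 21 (-0.57) and Zmat3 between days 21 and 14 (0.045). Library size alone turned the last (0.0195), and the libraries that share a code turned Bax at day 26 (0.076).

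With a library left out, log2 values crossed 0 for Bax at day 26 (-0.12 to 0.022), Trp53inp1 at day 14 (-0.41 to 0.15), Zmat3 at day 14 (-0.16 to 0.074), and Cdkn2b at day 14 (-0.031 to 0.95) and day 21 (-0.60 to 0.57). Between days 21 and 14 they did for Ccng1 (-0.042 to 0.065), Sesn1 (-0.0004 to 0.41), Zmat3 (-0.11 to 0.11) and Cdkn2b (-0.84 to 0.32). Between days 26 and 21 they did for Phlda3 (-1.03 to 0.074) and Cdkn2b (-0.67 to 1.60), and between days 26 and 14 for Cdkn2b (-0.77 to 1.15). Depth limits Cdkn2a and Cdkn2b alone among the members.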
